A study of Mus musculus with 5 samples.

Results

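The genes described here are 10 genes of the mammalian circadian clock: Per1, Per2, Per3, Cry1, Cry2, Arntl (also known as Bmal1), Clock, Nr1d1, Nr1d2 and Dbp. They were taken as every probe set of the array whose annotation gives 1 of these symbols alone, which was 23 of 45101 probe sets and 10 of 18194 named genes. The rule reads symbols, not intensities, but the 10 genes were chosen with earlier results of these data known. Granulosa cells of the mouse ovary were profiled on Affymetrix 3' expression arrays, with 5 groups and 1 array in each. All mice were primed for 48 h with eCG, a gonadotropin that makes follicles grow, before they were given hCG, which triggers ovulation as luteinizing hormone does. The knockout groups carried fl/fl alleles for both CEBPα and CEBPβ together with Cyp19-cre, and were collected 4, 8 and 24 h after hCG. Cyp19-cre drives recombination in granulosa cells from the aromatase promoter. The wild type groups, whose labels name no allele or transgene, were collected 8 and 24 h after hCG. Mice collected at 4 or 8 h were 23 days of age, and those collected at 24 h were 24 days of age. The labels do not say whether cells of several mice were pooled for an array, which part of either gene was deleted, or at what hour of the day cells were collected.

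The clock is a feedback loop that runs in nearly every cell. CLOCK and ARNTL pair as a transcription factor that binds E-box sequences and turns on the Per and Cry genes, whose proteins return to the nucleus and repress it. A further loop runs through Nr1d1 and Nr1d2, which encode the REV-ERB repressors, and the ROR activators, which compete for ROR elements in Arntl and other genes. DBP and its relatives TEF and HLF act through D-box sequences, where NFIL3 represses. Per1 also responds directly to cyclic AMP signalling, the pathway by which luteinizing hormone and hCG act on granulosa cells.

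The sequence just upstream of these genes holds several of the elements named above. RefSeq promoter windows (GRCm38.p6, 250 bases before to 50 after a gene's start) were matched for 9 of the 10 genes, 13 windows in all. Per2 had no window, so it was not searched for any element. The windows shown are those with a match in the genes whose values change most below, written 5' to 3' on the gene's strand with the letters of the element named for each gene in capitals. In Per1 (chr11:69098743-69098828, plus strand) and Cry1 (chr10:85185079-85185164, minus strand) the capitals mark the E-box CACGTG, and in Cry1 also the related E'-box CACGTT read on the opposite strand. The E'-box is likewise marked in Nr1d1 (chr11:98775380-98775455, minus strand). In Per3 (chr4:151044793-151044885, minus strand) they mark 2 copies of the D-box TTATGTAA, and in Nr1d2 (chr14:18239138-18239223, minus strand) AGGTCA, the core of the ROR element. For Arntl (chr7:113207530-113207559, plus strand) the same AGGTCA begins at position 32 after the gene's start in 1 of its windows. Only that stretch of 30 bases is given.
Per1: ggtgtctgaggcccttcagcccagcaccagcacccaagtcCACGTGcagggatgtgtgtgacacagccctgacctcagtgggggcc
Cry1: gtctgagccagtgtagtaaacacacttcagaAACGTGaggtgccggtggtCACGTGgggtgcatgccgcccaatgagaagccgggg
Nr1d1: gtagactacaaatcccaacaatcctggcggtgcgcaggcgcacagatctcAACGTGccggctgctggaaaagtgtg
Per3: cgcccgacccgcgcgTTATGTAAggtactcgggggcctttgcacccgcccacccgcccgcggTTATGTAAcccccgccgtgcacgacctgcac
Nr1d2: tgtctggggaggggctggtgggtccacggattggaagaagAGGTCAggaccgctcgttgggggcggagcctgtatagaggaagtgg
Arntl: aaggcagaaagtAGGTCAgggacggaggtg

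Matches were sought on both strands in all 32851 windows of the table. CACGTG was found in 7.15% of windows and, among the clock genes, in Per1 and Cry1. CACGTT was found in 4.68% of windows and in Cry1, Cry2 and Nr1d1. TTATGTAA occurred in only 0.938% of windows and in Per3, at positions -205 and -158 from the gene's start, while the form TTACGTAA (0.119%) was in no clock gene window. AGGTCA was found in 16.3% of windows and in Arntl, Clock, Nr1d2 and Per1, where the match at -137 lies in the stretch shown and is left in lower case. The cyclic AMP response element TGACGTCA (1.79%) was in none of the 13 windows. Its core TGACG, which the full element contains, was in 20.8% of all windows and in Per1, Cry1 and Cry2. The C/EBP-like sequence TTGCGCAA (0.183%) was in none, and the looser form TTGCNNAA, which includes it, was in 10.8% of windows and in Nr1d1 and Per1. These short windows leave out more distant elements, and a match is a string of letters, not a site shown to be used.

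Values are the deposited intensities, on a linear scale, and differences are on the log2 scale. With 1 array per group there is no replicate error, so no comparison has a test or p-value. In its place, a gene was called higher or lower where 1 intensity was at least 2-fold the other (1 on the log2 scale) and the higher reached a floor of 22, the 40th percentile of all values. Each gene is represented by its probe set of highest mean, and 16 of the 23 clock gene probe sets were at or above the floor on all 4 arrays at 8 and 24 h, while 5 were under it on all 4. The spread between probe sets of 1 gene measures technical error only, and was 0.28 (SD, log2) for the genotype difference at 8 h, 0.40 at 24 h, 0.34 for the time change in wild type against 0.39 in the knockout.

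Facts of the arrays bear on these values. The arrays at 8 and 24 h had medians of 31 or 32, whereas the knockout array at 4 h had a median of 54 and is described separately. The targeted genes were lower in the knockout, Cebpa by at least 31.1-fold at 8 h and by 9.26-fold at 24 h, and Cebpb by 6.60-fold and 46.8-fold. All 10 granulosa markers with a named probe set were above the floor on all 5 arrays, with summed intensities of 40881 to 58558 at 8 and 24 h. Markers of other cells differed between genotypes. All 11 stroma and smooth muscle markers and all 11 endothelial markers were lower in the knockout at 8 h, with 3 of 11 and 3 of 10 lower at 24 h. Summed stroma intensity was 23634 in wild type against 5040 in the knockout at 8 h, and 15028 and 9306 at 24 h, and the endothelial sum was 2071 and 581, then 1294 and 628. No stroma marker was under the floor, and 4 of 11 endothelial markers were under it in the knockout at 8 h. In bulk cells, fewer cells of a type and less RNA per cell cannot be told apart.

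**Figure D1:**
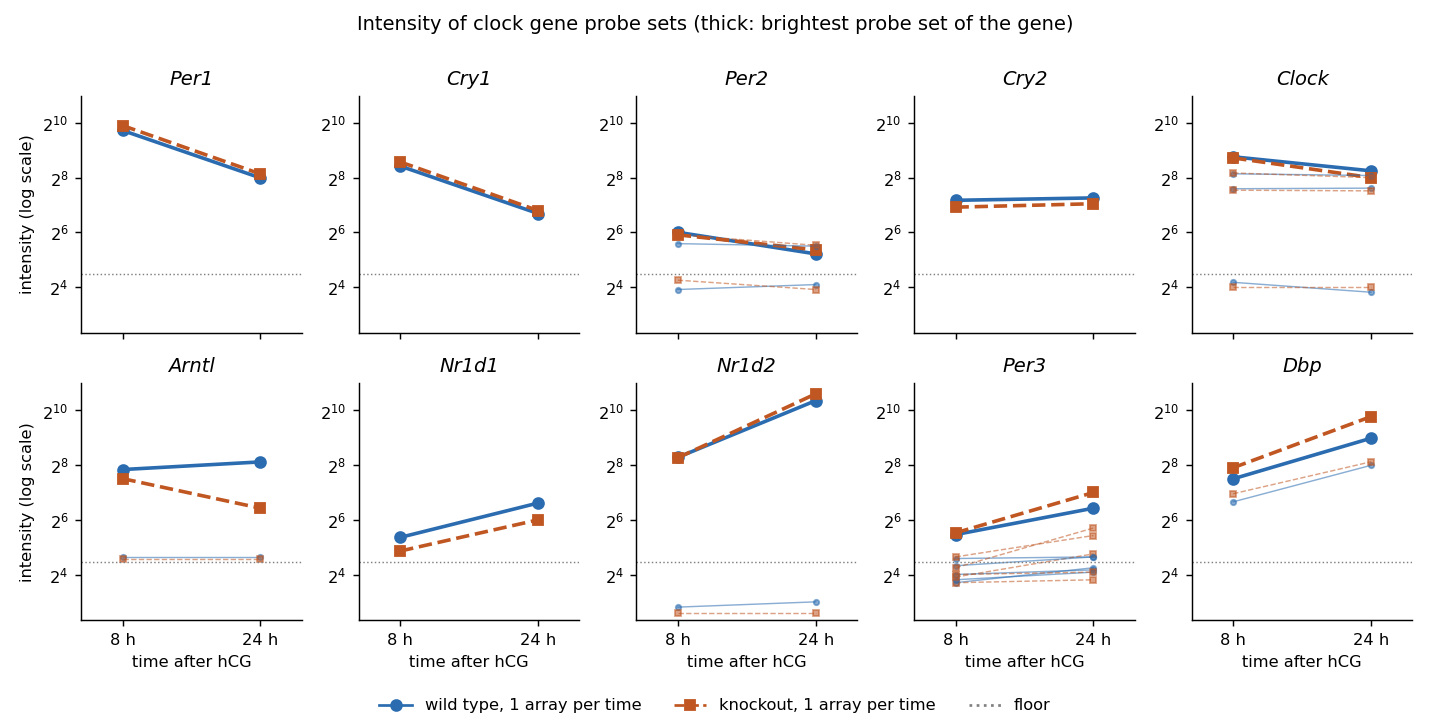
Intensity (log scale) of every clock gene probe set at 8 and 24 h after hCG, 1 array per point, with wild type in blue circles and knockout in orange squares. Thick lines are the brightest probe set of each gene and the dotted line is the floor of 22; Per1 and Cry1 go down and Nr1d2 and Dbp up in both genotypes, and the lines of Arntl part at 24 h.

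Between 8 and 24 h after hCG the clock genes moved in opposite directions, and did so in both genotypes. Per1 and Cry1, which encode repressors of the core loop, fell more than 3-fold, while Nr1d2, Dbp and Nr1d1 rose. In wild type 3 of the 10 genes were called higher and 2 lower, against 5.56% and 6.58% of all genes above the floor. In the knockout 4 were called higher and 3 lower, against 6.87% and 5.35%. The median time change of the 10 genes was 0.18 in wild type, with 0.00 for all genes, and -0.21 in the knockout, with 0.07 for all genes. The time changes of wild type and knockout share no array. The change had the same sign in both genotypes for 9 of 10 clock genes and for 69.5% of 12726 genes. In both, 5 of 10 clock genes were called in the same direction, against 6.0% of all genes. The 10 genes were chosen with earlier results of these data known, so these shares are a description and no test. The 16 h between these collections also shift the hour of the day, so time since hCG and time of day cannot be told apart. At 3-fold, 3 of the 10 genes were called in wild type, where 249 of 13046 genes were higher and 351 lower, and 4 in the knockout, where 252 of 12989 genes were higher and 297 lower.

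Per1, a period gene that responds to cyclic AMP, had intensities of 847 in wild type against 959 in the knockout at 8 h, and of 254 and 281 at 24 h. It fell 3.33-fold in wild type and 3.41-fold in the knockout. Cry1, a cryptochrome and a strong repressor of CLOCK and ARNTL, went from 343 to 103 in wild type and from 381 to 111 in the knockout. Its falls of 3.33-fold and 3.43-fold were close to those of Per1. Each of these genes has a single probe set, so neither has a second measurement on the array.

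The other members of the repressor arm changed less. Per2, a period gene with weak signal here, was 64 in wild type against 60 in the knockout at 8 h and 37 and 41 at 24 h, which are log2 changes of -0.79 and -0.55 that missed the rule. Its other probe set above the floor gave 48 and 60 at 8 h and 45 and 46 at 24 h. Cry2, the second cryptochrome, was 144 and 121 at 8 h and 153 and 132 at 24 h. Its log2 changes of 0.09 and 0.13 lay within the spread between probe sets.

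Nr1d2, which encodes REV-ERBβ, had the greatest rise of the 10 genes on their brightest probe sets. With the mean of all probe sets its log2 changes in wild type and knockout, 1.13 and 1.17, were below those of Dbp, 1.41 and 1.52. Its brighter probe set went from 312 to 1315 in wild type, 4.21-fold, and from 309 to 1562 in the knockout, 5.06-fold, and its other probe set was between 6 and 8 on all 4 arrays, under the floor. Nr1d1, which encodes REV-ERBα, gave a weak signal, at 41 and 29 at 8 h and 98 and 64 at 24 h. It rose 2.39-fold in wild type and 2.21-fold in the knockout.

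Dbp, the D-box activator whose own gene is a direct target of CLOCK and ARNTL, rose on both of its probe sets. The brighter went from 181 to 507 in wild type, 2.80-fold, and from 240 to 877 in the knockout, 3.65-fold. The dimmer went from 101 to 255 and from 124 to 279, log2 changes of 1.34 and 1.17. Both probe sets were higher at 24 h than at 8 h in each genotype.

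Per3, the period gene whose promoter window holds the D-boxes shown above, was 44 and 46 at 8 h and 86 and 128 at 24 h on its brightest probe set. The change in wild type, 0.97 on the log2 scale, fell just short of the rule, and that in the knockout, 2.78-fold, passed it. Per3 has 6 probe sets, and 3 dimmer ones also had their highest value of the 4 arrays in the knockout at 24 h. They went from 20 in wild type at 8 h to 25 at 24 h and from 19 in the knockout to 52, from 24 to 25 and from 25 to 43, and from 14 to 17 and from 15 to 27. The remaining 2 stayed under the floor on all 4 arrays.

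Of the activators, Clock changed little. Its brightest probe set was 434 and 422 at 8 h and 304 and 256 at 24 h, log2 changes of -0.51 in wild type and -0.72 in the knockout. Its other 2 probe sets above the floor gave 193 and 186 at 8 h against 196 and 183 at 24 h, and 282 and 288 against 270 and 256, so each of these moved by less than the spread between probe sets. Arntl went from 229 to 278 in wild type and from 182 to 86 in the knockout. It was called lower with time in the knockout only, 2.12-fold, against a log2 change of 0.28 in wild type.

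**Figure D2:**
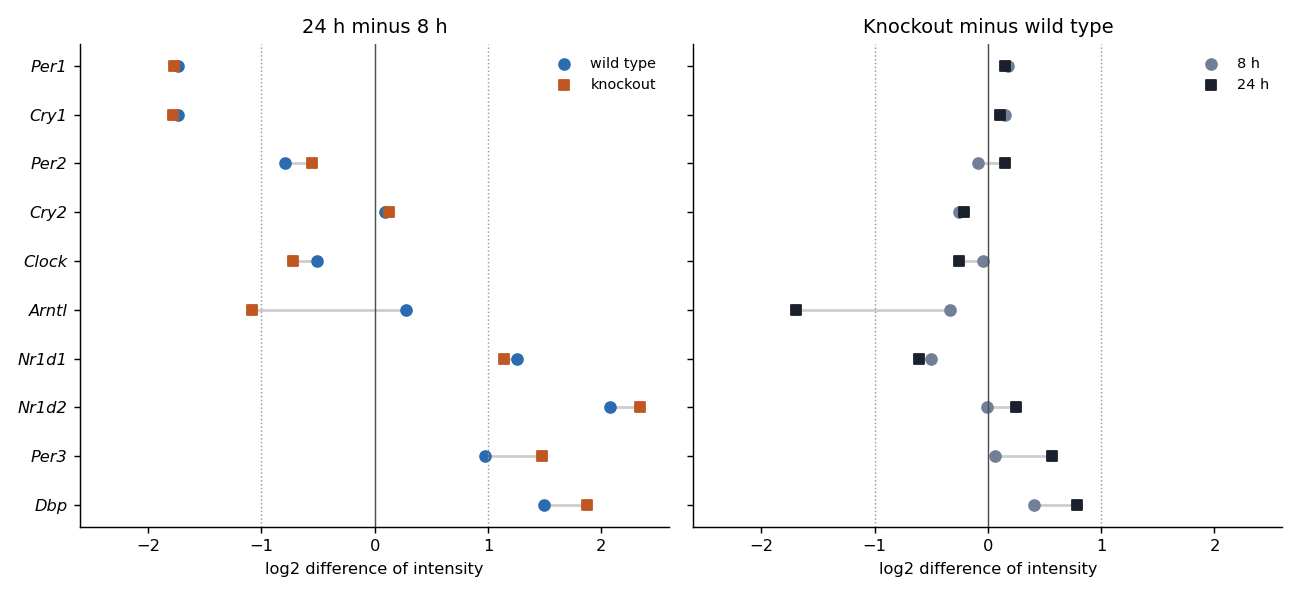
Log2 differences of the brightest probe set of each clock gene: left, 24 h minus 8 h in wild type (circles) and knockout (squares); right, knockout minus wild type at 8 h (circles) and 24 h (squares). Dotted lines mark 2-fold. The time changes of Per1 and Cry1 nearly coincide between genotypes, and Arntl is the gene whose points lie farthest apart. For each gene that distance is the same quantity in both panels, the difference of the time changes.

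Few clock genes were called between knockout and wild type, and the same held for all genes, with 5.67% called either way at 8 h and 7.1% at 24 h. At 8 h none of 10 genes was called, where 1.59% of all genes were called higher and 4.08% lower, and the log2 differences ran from -0.50 (Nr1d1) to 0.41 (Dbp) with a median of -0.03, against -0.01 for all genes. At 24 h, 1 of 10 was called lower and none higher, where 3.96% and 3.14% of all genes were. The median was 0.13, against 0.06 for all genes. The difference of the time changes between genotypes was called for 1 of 10 clock genes, again lower, where 3.10% of all genes were called lower and 5.08% higher. With each array centred on its median, that split over all genes was 503 lower and 534 higher, in place of 412 and 676. Calls that share an array are not independent: the knockout array at 24 h enters the genotype difference, the time change and their difference.

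The gene called at 24 h was Arntl, the partner of CLOCK. Its probe set gave 278 in wild type against 86 in the knockout, 3.23-fold lower, a log2 difference of -1.69 after one of -0.33 at 8 h. Across the 4 arrays the knockout at 24 h was the low one, with the other 3 between 182 and 278. The difference of the time changes was -1.36. Arntl has a dimmer probe set, which read 25 and 24 at 8 h and 25 and 24 at 24 h, just above the floor. With the mean of both probe sets the difference at 24 h was -0.88. Another setting left out probe sets by a lettered suffix of the name (_a_at, _s_at, _x_at and the like). The brighter Arntl probe set ends in _a_at and was left out for that alone, and the difference was then -0.06. The change with time in the knockout was -0.54 and 0.00 under these settings, so both calls for Arntl rest on its brighter probe set.

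Labelling controls also differed on these arrays. For the dap probe sets, which read a bacterial poly(A) control RNA, the signal from the middle of the transcript over that from its 3' end was 0.295 in the knockout at 24 h, 0.370 in the knockout at 8 h, and 0.415 and 0.499 in wild type at 8 and 24 h. The dap 5' over 3' ratio was 0.0297 in the knockout at 24 h, 0.0417 in the knockout at 8 h, and 0.0816 and 0.132 in wild type. For thr, another such control, the middle over 3' ratio was lowest in the knockout at 8 h, 0.268, with 0.297 in the knockout at 24 h and 0.341 and 0.497 in wild type. The 5' over 3' ratio of Actb in the knockout at 24 h was 0.669, against 0.689 in wild type, and that of Gapdh was 0.95 against 1.03. The part of labelling in the Arntl difference was not tested.

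Other members differed by less than 2-fold at 24 h. Dbp was 1.73-fold higher in the knockout on its brighter probe set, and 0.13 on the log2 scale on the other. Per3 was 1.49-fold higher on its brightest probe set, and of its dimmer ones that reading 25 in wild type against 52 in the knockout differed by more than 2-fold. Nr1d1 was lower in the knockout at both times, 29 against 41 at 8 h and 64 against 98 at 24 h, or 1.41-fold and 1.53-fold. Per1, Cry1, Cry2, Per2, Clock and Nr1d2 differed by 1.19-fold or less at both times.

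Several clock regulators outside the 10 genes differed more between genotypes. Values were obtained for 11 of them. At 8 h, 2 of 9 above the floor were lower in the knockout and none higher, against 4.08% and 1.59% of all genes. At 24 h 3 of 10 were lower and none higher, against 3.96% and 3.14% of all genes. The list medians were -0.05 and 0.01, against -0.01 and 0.06 for all genes. Rora, which encodes the activator RORα that acts on ROR elements, was 454 in wild type against 69 in the knockout at 8 h. At 24 h it was 1234 and 95. It was 6.58-fold and 13.0-fold lower, and of its 8 probe sets above the floor 6 were lower by the rule at each time. In wild type Rora rose 2.72-fold with time, and in the knockout its log2 change was 0.46.

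Npas2, a CLOCK paralogue that also pairs with ARNTL, rose in wild type, 3.96-fold, with a log2 change of 0.05 in the knockout and a difference of time changes of -1.93. It was 27 in wild type against 26 in the knockout at 8 h and 107 and 27 at 24 h, 3.96-fold lower in the knockout at 24 h, and its other probe set read 16 to 23, near the floor. Nfil3, the repressor at D-boxes, was 1376 in wild type against 258 in the knockout at 8 h, 5.33-fold lower. By 24 h it had fallen 5.64-fold in wild type, to 244, against 152 in the knockout, a difference short of the rule. Bhlhe40, which encodes the E-box repressor DEC1, was 708 and 607 at 8 h and 661 and 167 at 24 h, 3.96-fold lower in the knockout at 24 h.

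Tef, a PAR-bZIP relative of Dbp, was 264 in wild type against 261 in the knockout at 8 h and 358 and 518 at 24 h. Its time change in the knockout, 0.99 on the log2 scale, was just under the rule. Ciart, Hlf, Timeless and Arntl2 were called in no comparison. The brightest probe sets of Rorb and Bhlhe41 did not exceed the floor of 22 at 8 or 24 h. The stroma, smooth muscle and endothelial sums given above were lower in the knockout on the same arrays as Rora, Npas2, Nfil3 and Bhlhe40, and their part in these differences was not tested. Stroma markers had a median log2 difference of -2.33 at 8 h and -0.65 at 24 h. The differences of Nfil3 at these times were -2.42 and -0.68, and those of Rora -2.72 and -3.70. Those of Npas2 were -0.05 and -1.99, and those of Bhlhe40 -0.22 and -1.98.

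**Figure D3:**
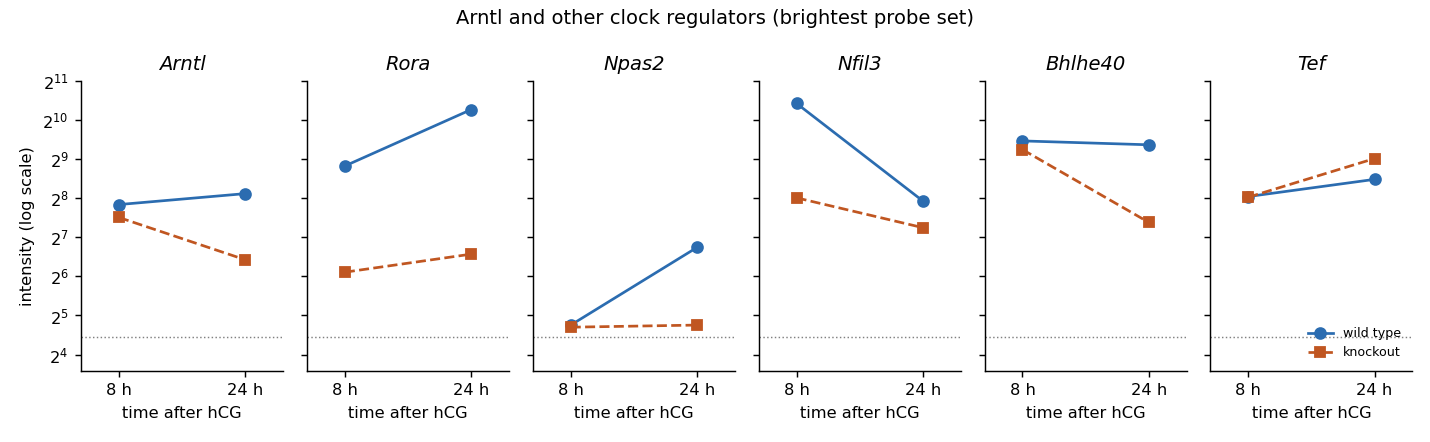
Intensity (log scale) of Arntl and of 5 other clock regulators at 8 and 24 h after hCG, 1 array per point, wild type in blue circles and knockout in orange squares, with the floor dotted. At 24 h the knockout lies below wild type for Arntl, Rora, Npas2, Nfil3 and Bhlhe40, by less than 2-fold for Nfil3, and above it for Tef.

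Genes that act on clock proteins or lie downstream of the clock were also listed. Of 10 genes above the floor whose products modify clock proteins, among them Csnk1d, Csnk1e and Gsk3b, none was called in any comparison. They encode kinases, a phosphatase, parts of ubiquitin ligases and the ubiquitin protease USP2, and Usp2 is also among the clock outputs below. Of all genes, 5.67% to 12.2% were called in each comparison. The median genotype difference of the 10 was 0.14 at 8 h and 0.45 at 24 h, against -0.01 and 0.06 for all genes. Of 11 genes often named as clock outputs, none was higher and 4 were lower at 24 h than at 8 h in wild type against 3 in the knockout. Their median time changes were -0.75 and -0.44, against 0.00 and 0.07 for all genes. With time, 6.58% of all genes were lower in wild type and 5.35% in the knockout, and 5.56% and 6.87% were higher. Wee1, a mitotic kinase gene driven through E-boxes, fell from 491 to 218 in wild type and from 721 to 347 in the knockout. Tsc22d3, which encodes the glucocorticoid-induced leucine zipper protein, fell from 2946 to 313 and from 1835 to 308. Hspa1b, a heat shock protein gene, fell 2.18-fold and 2.93-fold. Alas1, which starts haem synthesis, was 1545 in wild type against 691 in the knockout at 8 h and 765 and 764 at 24 h. On this probe set it fell in wild type and was called lower in the knockout at 8 h only. Its dimmer probe set was called in no comparison, at -0.39 for time in wild type and -0.49 for genotype at 8 h.

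Cyclic AMP response genes and ovarian genes for which clock input has been reported were set beside them. Crem, which encodes the cyclic AMP inducible repressor ICER, fell 3.0-fold in wild type and 3.16-fold in the knockout, from 147 and 142 at 8 h to 49 and 45 at 24 h. Fos, an immediate early factor, went from 1011 to 287 in wild type, a fall of 3.52-fold, and from 1060 to 569 in the knockout, short of the rule. None of the 5 genes of that list above the floor was called between genotypes. Of all genes, 5.67% were called so at 8 h and 7.1% at 24 h. Of 3 ovarian genes measured, 2 were called lower at 24 h than at 8 h in each genotype and none higher. Of all genes, 6.58% were lower with time in wild type and 5.35% in the knockout, and 5.56% and 6.87% higher. Star, the cholesterol carrier of steroid synthesis, fell from 9231 to 1259 in wild type and from 7421 to 327 in the knockout. Ptgs2, the inducible prostaglandin synthase, went from 865 to 47 and from 409 to 11. Cyp11a1, which makes pregnenolone from cholesterol, went from 11097 to 19408 and from 7938 to 12292, log2 changes of 0.81 and 0.63 that missed the rule. Star was 3.85-fold and Ptgs2 at least 2.14-fold lower in the knockout at 24 h, where 3.96% of all genes were called lower and 3.14% higher. Ptgs2 was also called lower at 8 h, 2.11-fold, where 4.08% of all genes were called lower and 1.59% higher. Its dimmer probe set was 40 in wild type against 44 in the knockout at 8 h, and 10 and 9 at 24 h, under the floor.

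The knockout array at 4 h stands apart from the rest. Its 5' over 3' ratio was 0.258 for Actb and 0.259 for Gapdh, against 0.669 to 0.735 and 0.949 to 1.03 on the other arrays, and there is no wild type at 4 h to set beside it here. Levels are therefore given as percentiles among all probe sets of the same array. Cry2 stood at 92.5 at 4 h, with an intensity of 1535, and at 69.9 to 73.2 on the 4 later arrays. Dbp was at its lowest at 4 h, at 59.7 against 74.9 to 92.9, and its dimmer probe set at 36.7 against 67.0 to 81.1. Nr1d2 stood at 91.7 at 4 h, 82.4 at 8 h and 96.1 at 24 h in the knockout.

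On their brightest probe sets the percentiles of the remaining genes moved less at 4 h. Per1 was at 91.1 at 4 h and 93.3 at 8 h in the knockout, Cry1 at 81.7 and 84.9, Per2 at 55.9 and 60.2, Per3 at 58.2 and 56.3, and Nr1d1 at 49.7 and 48.6. Clock was at 91.2 and 86.1, and Arntl at 79.1 and 75.3 before its 64.9 at 24 h. Each array was then centred on its median, which removes a shift of -0.80 between the knockout arrays at 4 and 8 h. From 4 to 8 h the log2 change was then -2.86 for Cry2, -1.35 for Nr1d2 and 2.14 for Dbp. For comparison Crem changed by -4.61 and Fos by -1.52. The part of the low 5' signal of the 4 h array in these differences was not tested.

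**Figure D4:**
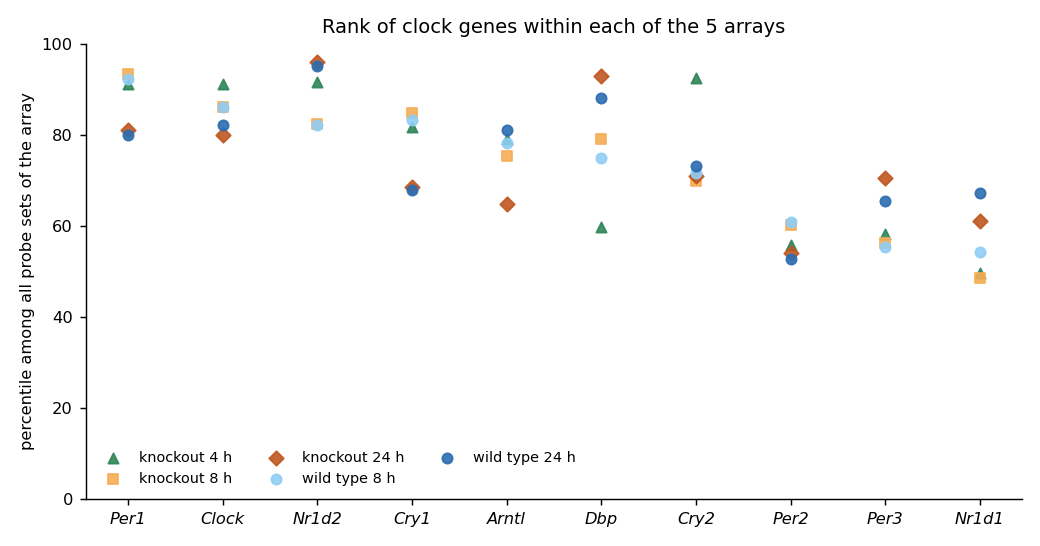
Percentile of the brightest probe set of each clock gene among all probe sets of its array, for each of the 5 arrays (triangles for the knockout at 4 h, squares at 8 h, diamonds at 24 h, circles for wild type). Cry2 stands at 92.5 at 4 h against 69.9 to 73.2 on the other arrays, and Dbp is at its lowest, 59.7, on that array.

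Genes outside the set with the most similar profiles were sought for Dbp and for Arntl, as the smallest Euclidean distance between mean-centred log2 profiles over the 4 arrays at 8 and 24 h, among 13299 genes. Nearest to Dbp were Als2cl (0.14), Manba, a lysosomal mannosidase gene (0.15), Slc5a4b (0.20), Nipal3 (0.23) and Slc36a3 (0.27). Manba went from 114 to 330 in wild type and from 151 to 498 in the knockout. At 4 h in the knockout, however, Manba stood at the percentile 85.4, above its 72.9 at 8 h, whereas Dbp was lower at 4 h than at 8 h.

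Nearest to Arntl were Ola1 (0.11), Tomm40, the channel of mitochondrial protein import (0.19), Limk1, a kinase of the actin cytoskeleton (0.23), Gtf2h4, a subunit of the transcription factor TFIIH (0.26), and Arpc4, a subunit of the Arp2/3 complex (0.27). As follows from the choice by likeness over the same 4 arrays, all 5 were lower in the knockout at 24 h. Their log2 differences were -1.55 to -1.93. Where they have other probe sets above the floor these differed less, with 0.00, -0.42 and -0.43 for Ola1, -0.91 for Limk1, -0.33 and -1.21 for Gtf2h4, and -0.93 for Arpc4. The brightest probe sets of these 5 genes were also lower in rank at 4 h than at 8 h in the knockout, Ola1 at 68.8 against 89.9, Tomm40 at 70.9 against 90.2, Arpc4 at 64.8 against 93.5, Limk1 at 43.4 against 75.5 and Gtf2h4 at 76.2 against 83.9. Arntl was not, with 79.1 at 4 h and 75.3 at 8 h.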

How the data were processed

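The authors' deposited intensities of 5 arrays were used, 1 per group. They were made with affy and RMA, versions unstated, per the submitters' processing notes. RMA gives log2 values as a rule, but the table holds only whole numbers that are not logs, and log2 was computed from them. Rounding makes differences coarse at low intensity. Sorted values differed by a mean of 0.05 (log2) between the 4 arrays at 8 and 24 h. The number of arrays limits the precision.

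Probe sets with 1 annotated symbol (34958) were used, with symbols updated through Entrez identifiers from RefSeq (GRCm38.p6; 34754 matched). 932 probe sets had several symbols and 9211 had none listed. A gene took its probe set of highest mean over the 5 arrays. Calls used the 2-fold rule on all genes. The code of the rule was run on simulated arrays, with less noise than the spread between probe sets and changes only well above the floor. That run checks the code and does not measure errors of the rule in these data. Python 3.11.15, numpy 2.4.6 and pandas 2.3.3 were used.

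Named genes are every clock gene, every listed pathway gene past the rule between 2 arrays, and the 5 nearest profiles to Dbp and Arntl. Tef, the genes called in no comparison and the other probe sets were added after values were seen. Members and lists were chosen with earlier results of these data known. Some listed genes are not reported here. Alternatives changed the probe set rule, scaling, floor and fold. Theca, leukocyte, surface epithelium, oocyte and erythroid markers had 2, 4, 0, 0 and 1 lower in the knockout at 8 h, and 0, 1, 2, 0 and 0 higher. At 24 h 0, 3, 1, 0 and 0 were lower and 1, 0, 0, 0 and 0 higher.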

Additional observations from a re-analysis of the deposited data

Results flagged for a closer look

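For 3 clock genes the direction of a difference was opposite in the other group, a contrast that has 1 array per group and was not tested. Arntl changed by 0.28 (log2) from 8 to 24 h in wild type and by -1.08 in the knockout. The genotype difference of Per2 was -0.09 at 8 h and 0.15 at 24 h, and that of Nr1d2 was -0.01 and 0.25. The values of Per2 and Nr1d2 lie within the spread between probe sets of 1 gene, 0.28 at 8 h and 0.40 at 24 h.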

How the results depend on the processing

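Of 50 counts of called clock genes under 10 alternatives in 5 comparisons, 42 were within 1.5 times the count reported. Median centring, quantile normalization of the 4 arrays, both other floors (11 and 66), raising values to the floor, and, chosen after seeing the data, taking floor and probe sets from the 4 arrays alone moved none beyond that. Nr1d1, at most 64 in the knockout, is not counted there at the floor of 66. With the mean of all probe sets, and without less specific probe sets, the genotype count at 24 h and the count for the difference of time changes went from 1 to 0. At a 1.5-fold threshold the genotype count at 24 h was 3, where 1519 of 13038 genes were higher and 1350 lower, and at 3-fold the time counts were 3 in wild type and 4 in the knockout and that for the difference of time changes was 0. Of the single log2 differences recomputed, 278 moved by less than the spread between probe sets and 17 by more. Of the 17, 11 were with the mean of all probe sets and 6 without those of lettered suffix. No called difference changed sign. Cry1 has no value without probe sets of lettered suffix, since its only probe set ends in _a_at. No paired analysis was possible because each group has 1 array. Signals of Per2, Nr1d1 and the dimmer Arntl probe set lie near the floor, which limits what their differences can show.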
